A study of Oryza sativa with 18 samples.

Results

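The phloem is the sugar-conducting tissue of the plant vascular system. It is laid down by procambial cells, and its mature form pairs enucleate sieve elements, which carry the flow, with companion cells, which keep their nucleus and load and maintain the sieve elements. Phloem parenchyma surrounds both. Open chromatin marks the regulatory DNA that a nucleus can use, so regions open in phloem nuclei of several organs are candidates for shared regulatory DNA of this tissue.

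The regions described here are the 1000 of 128764 accessible regions of the rice genome with the highest mean accessibility in phloem states, relative to the other cell states of the same organ. Nuclei of Nipponbare rice tissue, given as Fresh under treatment in the labels, had been profiled by single-nucleus ATAC-seq in 18 libraries of 9 organs or stages, with 2 libraries each. The authors' table gives 1 value per region in each of 128 cell states, and each state is pooled over the libraries of its organ. No column carries a replicate number, so a value within an organ has no SD and no n, and comparisons below use organs as units.

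Phloem states are columns that the authors labelled Companion_cell or with the word phloem. There are 10 of them in 4 organs. Axillary bud has Companion_cell, Developing_phloem, Phloem_parenchyma and Phloem_precursor. Early seedling has Companion_cell, Developing_phloem and Phloem_precursor, seedling has Companion_cell and Developing_phloem, and leaf has Companion_cell. Crown root, seminal root, panicle, early seed and late seed have no phloem column. Regions are 501 bases wide and are not paired with genes in the files. The state labels were therefore not checked against marker genes, and no gene or sequence is given. None of the sources used here names the genome build of the coordinates.

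Accessibility is given in CPM, recovered as 2 raised to the deposited log2 value. The excess of a state is its log2(CPM + 1) minus the mean of all states of its organ. Regions were ranked by the mean excess over the 10 phloem columns, so the values in those columns describe the choice and are no finding. The members ran from 1.05 to 2.18 with a median of 1.23, and the median of all regions was 0. The threshold separates near-equal regions. The last 5 members lay between 1.0537 and 1.056, and the first 5 regions outside lay between 1.0528 and 1.0534. The last member (chromosome 1, 333562 to 334062) reached 31.0 CPM in Companion_cell of leaf and 30.1 CPM in that of seedling, and at most 8.69 in the other 8 phloem columns. The first region outside, on chromosome 12 from 2289241 to 2289741, had 30.2 and 26.6 in the same columns and at most 4.55 elsewhere in phloem.

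Read depth per column is unknown. The number of distinct values, which falls when a column rests on few reads, was 76 to 467 in the phloem columns, with a median of 215, and 51 to 2587 with a median of 402.5 over all columns. The phloem columns thus had a lower median by this stand-in for depth, which was not checked against reads. Phloem_precursor (467) and Phloem_parenchyma (430) of axillary bud lay above the median of all columns. Companion_cell of seedling had 76 distinct values, Developing_phloem of early seedling 78 and Companion_cell of leaf 80. By this measure, values in these 3 columns carry the most sampling error among the phloem columns. Without them 731 of the 1000 members were still among the first 1000. How far depth shaped the list was not tested otherwise.

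The member with the highest mean excess, on chromosome 1 from 3951636 to 3952136, was open in most phloem columns and nearly closed in the non-phloem states of these organs. Its CPM in axillary bud was 16.7 in Companion_cell, 21.8 in Developing_phloem, 0.938 in Phloem_parenchyma and 2.07 in Phloem_precursor. In early seedling it was 3.32 in Companion_cell, 13.8 in Developing_phloem and 11 in Phloem_precursor. It was 22.4 in Companion_cell of leaf, 12.5 in Companion_cell of seedling and 18.0 in Developing_phloem of seedling. The median over the other states of these 4 organs was 0.472 and the highest was 2.25, in Vascular_cell of axillary bud. So 8 of 10 phloem columns stood above every non-phloem state of their organs, and the bud parenchyma and precursor columns did not.

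The second member lies beside it, on chromosome 1 from 3952618 to 3953118, and had the same order in axillary bud, with 27.9 CPM in Developing_phloem, 21.2 in Companion_cell, 6.93 in Phloem_precursor and 1.84 in Phloem_parenchyma. Its highest value was 30.2 in Companion_cell of leaf, against a median of 0.763 over the non-phloem states. Neighbouring members recur among the 12 highest. On chromosome 5, the adjoining regions from 1493125 to 1493625 and from 1493648 to 1494148 held ranks 3 and 8. The first of them had 44.4 CPM in Companion_cell of leaf and 37.8 in that of seedling, and its lowest phloem value was 5.13 in Phloem_parenchyma of axillary bud. The other ran from 3.94 in the same parenchyma column to 29.4 in Companion_cell of leaf. On chromosome 2, the regions from 4064066 to 4064566 and from 4060462 to 4060962 held ranks 6 and 7, with 2.55 to 27.8 CPM and 3.86 to 31.3 CPM over the phloem columns, against non-phloem medians of 0.763 and 1.26.

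In 4 of the 12, a non-phloem state of the same organs reached 17.5 CPM or more, so they were not closed outside phloem. The region on chromosome 11 from 2703213 to 2703713 (rank 9) was the most even, with 9.31 to 22.3 CPM over all 10 phloem columns, and it reached 17.5 in Vascular_parenchyma of seedling. That on chromosome 6 from 29907504 to 29908004 (rank 11) had 10.6 to 33.2 CPM in phloem and 27.8 in Procambial_meristem of seedling. That on chromosome 4 from 20565555 to 20566055 (rank 10) had 5.0 to 37.8 CPM in phloem and 30.6 in the same procambial state. That on chromosome 1 from 40682073 to 40682573 (rank 4) had 6.82 to 33.2 CPM in phloem and 20.3 in Vascular_parenchyma of seedling. Ranks 3, 7 and 8, described above, reached 12.8, 10.8 and 10.4 CPM in a non-phloem state of these organs. The regions on chromosome 6 from 1027458 to 1027958 (rank 5) and from 27456304 to 27456804 (rank 12) reached at most 6.74 and 8.37 CPM in them. Both were more open in other organs, with 12.7 and 21.3 CPM in SBM of panicle. Rank 5 also had 10.3 CPM in Radicle_meristem of early seed, and rank 12 had 16.6 in Stele_initials of crown root.

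**Figure D1:**
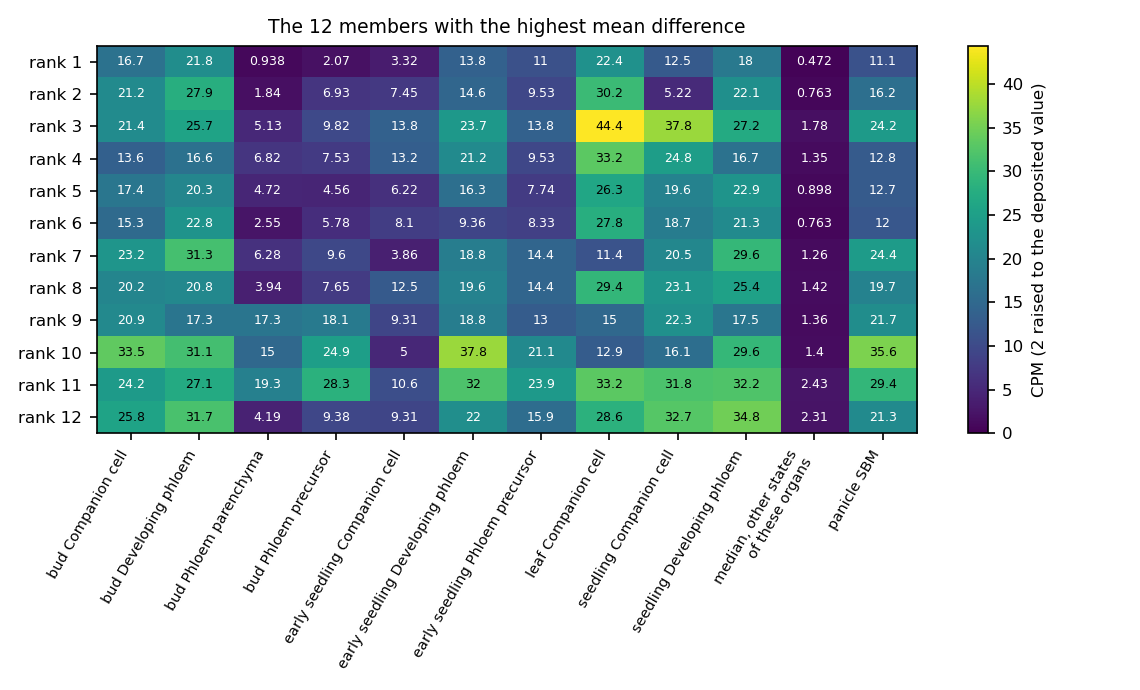
CPM of the 12 members with the highest mean excess (rows) in the 10 phloem columns, as the median over the other states of the same 4 organs, and in SBM of panicle (columns), with the colour scale in CPM. The non-phloem median stays at or below 2.43 in all 12, while SBM of panicle, a column the choice did not use, ranges from 11.1 to 35.6.

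Across the 1000 members the phloem states were not equally represented. In axillary bud the median excess was 1.47 in Developing_phloem and 1.39 in Companion_cell, and smaller in Phloem_precursor (0.73) and Phloem_parenchyma (0.42). An excess above 1 was reached there by 826 members in Developing_phloem (2.87% of all regions did), 845 in Companion_cell (2.57% of all), 294 in Phloem_precursor (0.647% of all) and 160 in Phloem_parenchyma (1.55% of all). In early seedling the median was 1.91 in Developing_phloem, 1.43 in Phloem_precursor and 0.84 in Companion_cell, with 884 (4.96% of all regions), 762 (2.88%) and 403 (4.48%) members above 1. In seedling it was 1.90 in Developing_phloem and 1.51 in Companion_cell, with 955 (4.42% of all) and 696 (6.52%). In leaf it was 1.54 in Companion_cell, with 687 (6.83% of all). Because the list was chosen on these columns, nothing is read from the distance between those counts and the background.

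A member exceeded 1 in a median of 6 phloem columns. No member did so in fewer than 3, 8 did so in all 10, and 212 had a mean excess above 1 in each of the 4 organs. Of all regions, 80.6% did so in none. In 874 members the CPM was at least 1 in every phloem column, as it was in 65.5% of all regions. At the even end lay the regions on chromosome 6 from 10696078 to 10696578 (10.7 to 19.9 CPM in phloem), on chromosome 3 from 9363958 to 9364458 (20.2 to 39.5 CPM) and on chromosome 1 from 38309940 to 38310440 (9.91 to 25.9 CPM), whose excess had an SD of 0.28 to 0.29 over columns. These were also fairly open outside phloem, with non-phloem medians of 5.32, 9.26 and 3.49 CPM.

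At the uneven end, with SDs of 1.43 to 1.55, lay regions of opposite kinds. The region on chromosome 3 from 237565 to 238065 had 27.8 CPM in Companion_cell of leaf and 24.8 in Companion_cell of seedling, but 0.41 to 7.45 in the other phloem columns. That on chromosome 10 from 21626676 to 21627176 had 31.7 and 26.6 CPM in the same columns and 0.23 to 3.86 in the rest. In the region on chromosome 1 from 4880961 to 4881461 the companion cells of seedling (0.643) and early seedling (0.543) were nearly closed, while Developing_phloem had 25.7 CPM in axillary bud, 24.5 in early seedling and 24.9 in seedling. It was also open in Companion_cell (21.5 CPM) and Phloem_precursor (16.5) of axillary bud and in Phloem_precursor of early seedling (11.6). So the first 2 of these regions were open mainly in companion cells of leaf and seedling, and the third in developing and precursor phloem and in companion cells of axillary bud.

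**Figure D2:**
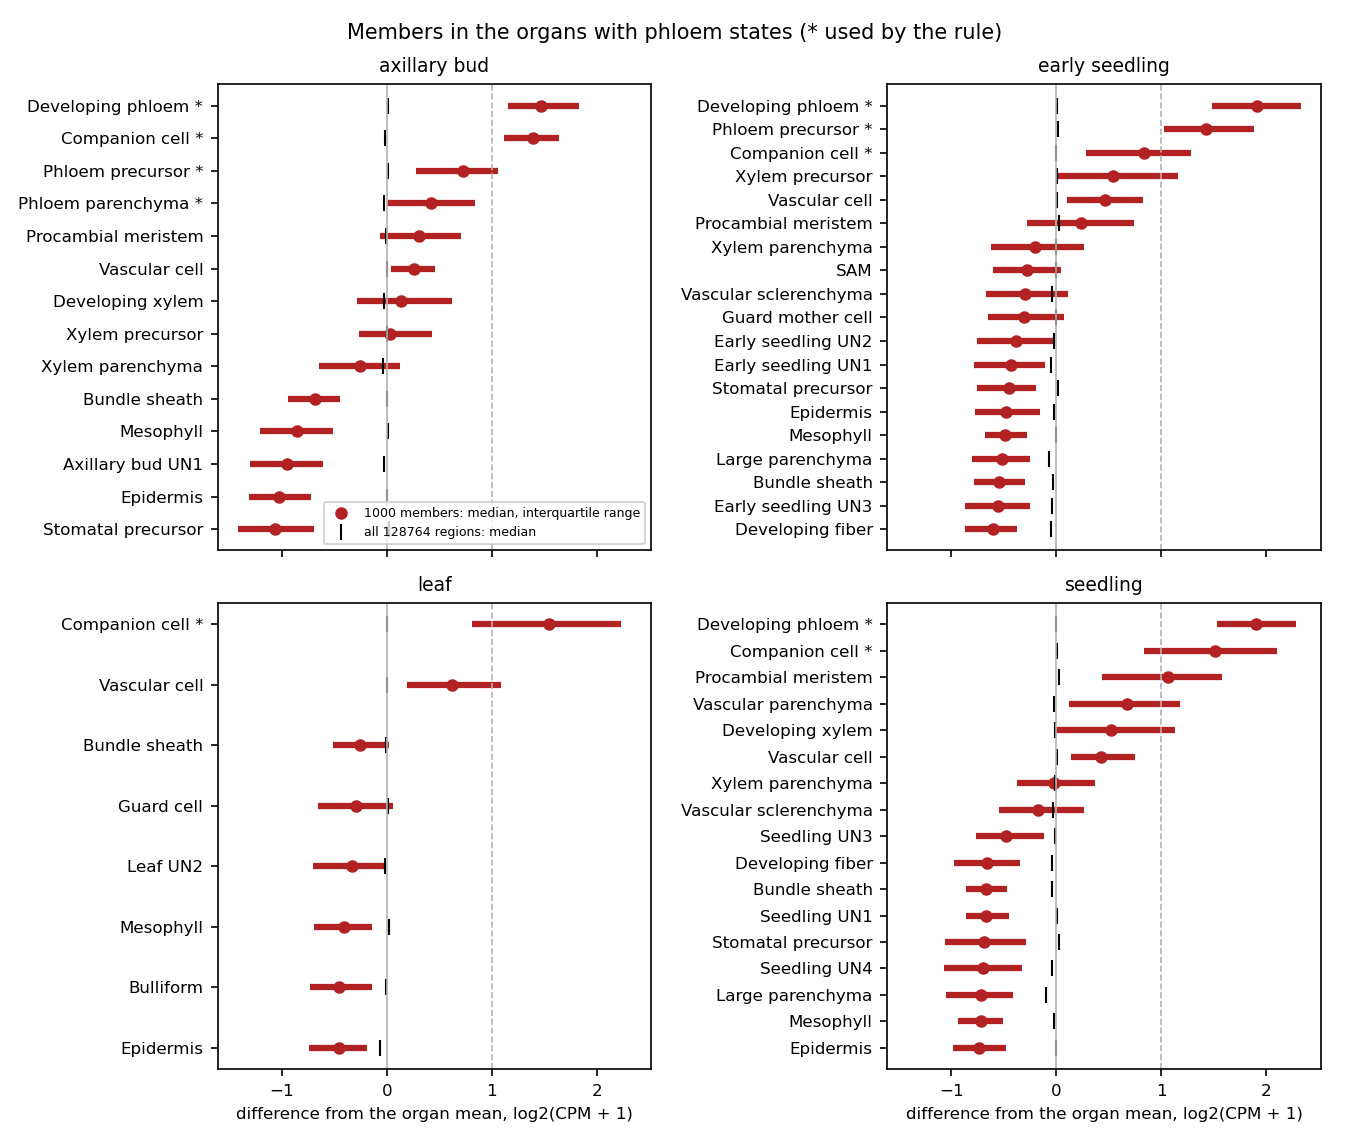
Excess over the organ mean, on the log2(CPM + 1) scale, of the 1000 members in every state of the 4 organs with phloem columns. Points are medians, red bars interquartile ranges, black ticks the median of all regions, the dashed line an excess of 1, and asterisks mark columns the choice used. Among the unmarked states, Vascular_cell and Procambial_meristem stand above 0, and epidermal, mesophyll and stomatal ones below. Xylem_precursor of early seedling (0.54) and Vascular_parenchyma (0.67) and Developing_xylem (0.52) of seedling are above 0 as well. Vascular_sclerenchyma (-0.30 and -0.17) and Xylem_parenchyma (-0.20 and -0.02) of early seedling and seedling are below.

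Across the 1000 members, the excess in Companion_cell of leaf and that in Companion_cell of seedling had a Pearson correlation of 0.69 (0.43 over all regions). Developing_phloem of early seedling and of seedling had 0.71 (0.54 over all regions). Companion_cell and Developing_phloem of seedling had -0.45 (0.17 over all regions), whereas the same states of axillary bud had 0.52 (0.49 over all regions). Companion_cell of axillary bud and that of leaf had -0.08 (0.26 over all regions), so companion cell columns did not vary alike in every organ. These are descriptions over regions, without a test. Columns of 1 organ share its libraries and organ mean, and the members were chosen by a mean over these columns, which constrains how their values can vary together.

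Single phloem states had their own leading members. Phloem_parenchyma of axillary bud was most in excess (2.42) on chromosome 1 from 30556573 to 30557073, with 21.9 CPM there and 0.268 in Companion_cell of early seedling. Phloem_precursor of axillary bud was most in excess (2.27) on chromosome 4 from 13229073 to 13229573, at 13.3 CPM. Companion_cell led on chromosome 4 from 23898307 to 23898807 in early seedling (2.75, 28.5 CPM), on chromosome 11 from 3869572 to 3870072 in leaf (3.83, 31.0 CPM) and on chromosome 10 from 318266 to 318766 in seedling (3.86, 35.2 CPM). The leaf region was also open in Companion_cell of seedling (24.0 CPM) and the seedling region in that of leaf (32.5 CPM). In early seedling, Developing_phloem led on chromosome 2 from 19900345 to 19900845 (3.55, 21.2 CPM) and Phloem_precursor on chromosome 2 from 19889361 to 19889861 (2.89, 26.5 CPM). Developing_phloem of seedling led on chromosome 11 from 7087308 to 7087808 (3.27, 33.2 CPM). In axillary bud, Companion_cell and Developing_phloem both led at the first-ranked region, with an excess of 2.81 and 3.18.

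Companion cells were set against the other phloem states of the same organ in axillary bud, early seedling and seedling. All of these columns were used to choose the members, so the values are a description. The organs differed. In axillary bud 900 of 1000 members were higher in Companion_cell (median difference 0.49), while in early seedling 755 and in seedling 634 were lower in it (medians -0.82 and -0.41). The median of all regions lay between -0.02 and 0.01. The states compared with Companion_cell are not the same in each organ, since axillary bud includes Phloem_parenchyma and seedling has Developing_phloem alone. Over the 3 organs, limma with Benjamini-Hochberg adjustment called 0 members higher and 0 lower at an adjusted p of 0.05, and 0% of all 128289 regions in either direction. An unadjusted p under 0.05 was reached by 435 members and by 12.8% of all regions, and the smallest adjusted p among members was 0.17. In simulated data the same fit recovered 0 of 200 regions shifted by 3, so its counts of 0 say nothing about the members. Without axillary bud, the same fit called 54 members higher, against 4.35% of all regions, and 416 lower, against 5% of all regions. It then rests on 2 seedling stages that share 1 tissue label, and takes its spread largely from all regions. Its columns also chose the members, and in early seedling most of them are not Companion_cell, so these counts are no finding.

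By sign alone, 201 members were higher in Companion_cell in 3 of 3 organs and 74 were lower in 3 of 3, against 16.3% and 17.4% of all regions. Leaf did not enter that split, but its Companion_cell column was used to choose the members. There, the median excess of Companion_cell was 2.32 for the 201 members higher in companion cells and 0.99 for the 74 lower. The panicle, root and seed states entered neither the split nor the choice. In Stele_initials the median excess was 0.29 in crown root and 0.39 in seminal root for the 201, and 1.44 and 1.43 for the 74. The Procambial_meristem columns differed less in the roots, with 0.86 for the 201 and 1.04 for the 74 in crown root. In seminal root they had 0.76 and 1.03. In the shoot, where these columns entered the organ means used in ranking, the gap was widest in seedling (0.22 for the 201 and 1.92 for the 74). It was -0.01 and 0.72 in early seedling, and 0.14 and 0.31 in axillary bud. In Pericycle the order was the other way, with 0.72 and 0.74 for the 201 and 0.55 and 0.46 for the 74. These groups were formed from measured values, so their difference is a description.

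**Figure D3:**
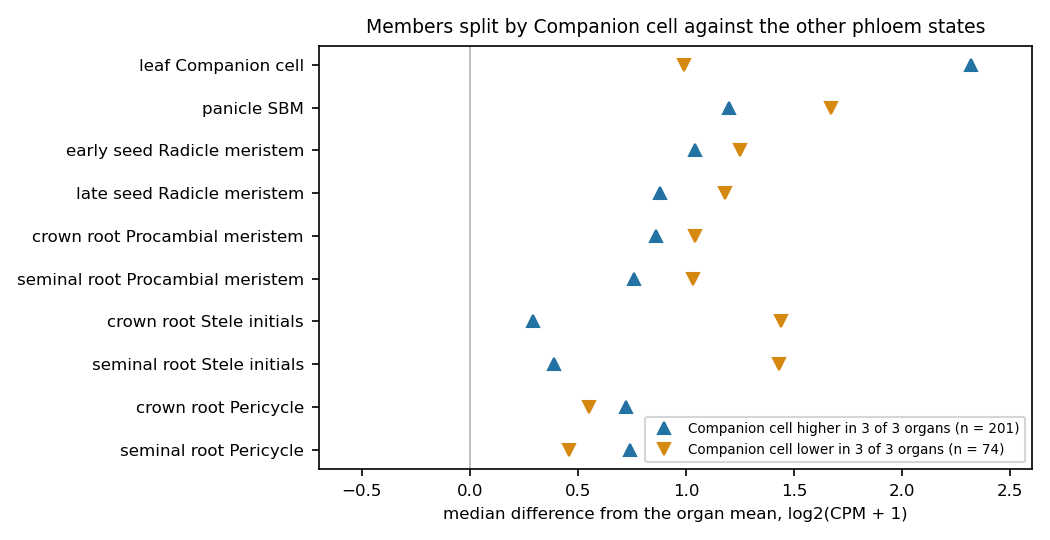
Median excess over the organ mean, on the log2(CPM + 1) scale, in 10 states that did not enter the split, for the 201 members higher in Companion_cell than in the other phloem states in 3 of 3 organs (upward triangles) and the 74 lower in 3 of 3 (downward triangles). Among the 10 states plotted, the groups lie farthest apart in Companion_cell of leaf (2.32 and 0.99) and in Stele_initials of both roots (0.29 and 0.39 against 1.44 and 1.43).

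Among the non-phloem states of the 4 organs with phloem, the members were most open in some of the vascular ones. In early seedling the median excess was highest in Xylem_precursor (0.54), where 302 members exceeded 1, against 4.25% of all regions. In seedling it was highest in Procambial_meristem (1.06), where 535 members exceeded 1, against 3.69% of all regions. Vascular_parenchyma (0.67) and Developing_xylem (0.52) of seedling came next, above Vascular_cell (0.43). Vascular_sclerenchyma and Xylem_parenchyma lay below 0 in both stages. Each label found in at least 4 organs was set against the other non-phloem states of its organ, with the phloem columns left out on both sides, and the difference was tested over organs with limma and Benjamini-Hochberg adjustment over all regions. The columns of the 4 organs with phloem had entered the organ means used in ranking, and those of the roots had not. Vascular_cell was higher in 701 of 1000 members, against 6.44% of 128743 regions, and lower in 0, against 4.07%. The median difference over members was 0.78, and 0 over all regions. It held in each of the 4 organs, with medians of 0.72 in axillary bud, 0.76 in early seedling, 0.98 in leaf and 0.70 in seedling, where 978, 922, 908 and 965 members were above 0.

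The member with the smallest adjusted p for Vascular_cell was on chromosome 6 from 19817967 to 19818467. Its CPM in Vascular_cell was 17.8 in axillary bud, 15.8 in early seedling, 10.9 in leaf and 21.0 in seedling. The medians of the other non-phloem states there were 3.97, 2.58, 2.02 and 3.54. The difference was 1.91 ± 0.13 on the log2(CPM + 1) scale (limma moderated SE, 4 organs, limma adjusted p = 0.00119). Each SE after ± here and below is moderated, so it borrows spread from all regions and is not the spread over organs alone. In seedling, 1 non-phloem state stood above Vascular_cell, at 25.3 CPM. Without seedling the count for Vascular_cell was 392, and the share of all regions called higher fell as well, to 1.6%.

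Procambial_meristem, the label of the stem cells that form vascular tissue, was higher in 571 members, against 4.41% of 128740 regions, and lower in 0, against 3.03%. The median difference over members was 0.94, and 0 over all regions. Both roots, which have no phloem column and played no part in the choice, showed it as well. The median was 1.15 in crown root with 966 members above 0, and 1.07 in seminal root with 958. It was 1.37 in seedling, 0.77 in axillary bud and 0.51 in early seedling, where the procambial column had 69 distinct values. Averaging the organs of 1 tissue label, which joins the roots and joins the seedling stages, left 334 calls for Procambial_meristem, against 1.11% of all regions, and 453 for Vascular_cell, against 2.24%.

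The member on chromosome 4 from 20564259 to 20564759 had the smallest adjusted p for Procambial_meristem. That state had 22.2 CPM in axillary bud, 27.6 in crown root, 16.8 in early seedling, 29.3 in seedling and 29.1 in seminal root. The medians of the other non-phloem states there were 3.87, 2.04, 1.59, 2.19 and 1.96. The difference was 2.57 ± 0.19 (limma moderated SE, 5 organs, limma adjusted p = 0.000729). It lies close to the member of rank 10.

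Photosynthetic and surface states were lower at the members than the mean of the other non-phloem states. That mean includes the vascular states given above as higher, so these results are not separate from those. Other states lay as low. In seedling the median excess was -0.72 in Mesophyll, -0.73 in Epidermis and -0.67 in Bundle_sheath, and also -0.72 in Large_parenchyma and -0.66 in Developing_fiber. Mesophyll, the main photosynthetic tissue, was lower in 153 members, against 2.65% of all regions, and higher in 2, against 3.89%, with a median difference of -0.38. Bundle_sheath, the cell layer that encloses the veins, was lower in 59, against 0.967%, and higher in 1, against 2.46%, with a median of -0.29. In leaf its median was -0.05, with 457 members above 0 and 543 below, against -0.31 in axillary bud, -0.31 in early seedling and -0.48 in seedling. Epidermis was lower in 56, against 0.349%, and higher in 0, against 1.62%, with a median of -0.42, and 482 members had an unadjusted p under 0.05 in either direction, against 18.7% of all regions. The direction was shared by more members than were called, since 919, 866 and 933 members were below 0 for Mesophyll, Bundle_sheath and Epidermis. These counts depended on which organs entered. With the organs of 1 tissue label averaged, the lower calls were 15 for Mesophyll (0.322% of all regions), and 0 for Bundle_sheath and Epidermis, for which no region was called. Without early seedling or without seedling they were 17 (0.274%) and 10 (0.431%) for Mesophyll, and again no region was called for the other labels. Without axillary bud they were 5 for Mesophyll (0.224%), 7 for Bundle_sheath (0.378%) and 0 for Epidermis (0% of all regions). Without leaf they were 222 (3.12%), 203 (2.03%) and 361 (8.09%) in the same order of labels, so the calls over all regions moved with those of the members.

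For Mesophyll, the member with the smallest adjusted p among the lower calls was on chromosome 2 from 19172815 to 19173315. Mesophyll had 3.74 CPM in axillary bud, 3.88 in early seedling, 0.762 in leaf and 3.24 in seedling, against medians of 22.1, 9.48, 3.62 and 15.3 over the other non-phloem states (-1.52 ± 0.15, limma adjusted p = 0.00326). For Epidermis it was on chromosome 4 from 28536522 to 28537022, with 2.52, 0.291, 1.62 and 0.495 CPM in those organs in that order, against 9.65, 1.95, 2.96 and 2.71 (-1.61 ± 0.18, limma adjusted p = 0.0157). For Bundle_sheath it was on chromosome 7 from 489637 to 490137, with 2.4, 0.386, 0.424 and 0.691 CPM against 6.80, 1.28, 1.28 and 1.67 (-0.90 ± 0.12, limma adjusted p = 0.0171). Few members went the other way. The one higher in Bundle_sheath lies on chromosome 3 from 8863060 to 8863560 (0.58 ± 0.12, limma adjusted p = 0.0494). The leading one higher in Mesophyll lies on chromosome 1 from 4193197 to 4193697 (0.67 ± 0.15, limma adjusted p = 0.0349), with 22.4 CPM in Mesophyll of leaf.

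**Figure D4:**
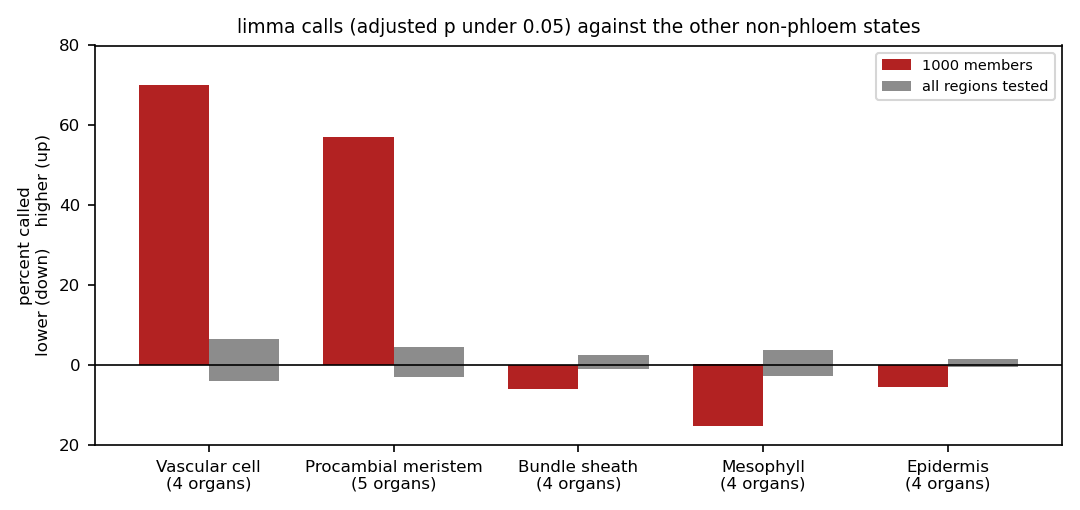
Percent of the 1000 members (red) and of all regions tested (grey) called higher (upward bars) or lower (downward bars) in each label than in the other non-phloem states of its organ, by limma at an adjusted p of 0.05. Members were called higher in 70.1% for Vascular_cell and 57.1% for Procambial_meristem, and lower in 15.3% for Mesophyll.

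The organs without a phloem column show where regions open in shoot phloem are open elsewhere. None of these values entered the choice. There is 1 pooled value per state, so the counts have no test and stand beside the share of all regions. In the panicle, the young inflorescence, SBM stood out from the other states. The labels do not spell out this abbreviation. Its median excess was 1.63 and its median CPM 14.9 over members, and 876 members exceeded 1, against 3.43% of all regions. SBM was the highest panicle state in 85.1% of members and in 11.2% of all regions, and its column had 1032 distinct values, more than any phloem column. Rudimentary_glume followed with 354 members above 1 (0.883% of all regions), then SM with 252 (0.632%), Panicle_UN4 with 184 (1.04%) and PBM with 164 (1.58%). Epidermis_meristem was lowest, with a median excess of -0.66.

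The largest excess in SBM was at the member on chromosome 3 from 22709117 to 22709617, with 29.7 CPM in SBM and a median of 1.74 over the panicle states. The first-ranked member had 11.1 CPM in SBM and a panicle median of 0.455, and in the roots and seeds no state passed 1.92 CPM at it. So its openness outside the shoot phloem lay in the panicle.

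In the roots, the states of the central cylinder led, with the same order of medians in crown and seminal root. Procambial_meristem had a median excess of 1.07 in crown root and 0.99 in seminal root, with 549 (3.9% of all regions) and 492 (3.39%) members above 1. Stele_initials had 0.87 and 0.91, with 437 (4.81%) and 453 (3.22%) members. Pericycle, the layer around the vascular strands, had 0.61 and 0.59, with 324 (3.07%) and 313 (3.67%). The highest state was Procambial_meristem in 35.1% of members in crown root and 27.1% in seminal root (5.54% and 4.98% of all regions), and Stele_initials in 29.4% and 30.8% (13.2% and 7.58% of all regions), so by this count Stele_initials led in seminal root. Developing_metaxylem had 0.39 and 0.42, with 207 (4.02%) and 227 (4.67%), while Developing_protoxylem was below 0 in both (-0.33 each), with 10 (2.71%) and 7 (3.2%). The xylem labels thus stood on opposite sides of the organ mean. Atrichoblast, a root surface state, was lowest in both roots, at -0.48 and -0.52. The roots share labels and tissue, so they are 2 related organs rather than independent tests.

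The largest excess in crown root was at the member on chromosome 8 from 21098155 to 21098655. It had 23.9 CPM in Pericycle of crown root and 24.3 in that of seminal root, against medians of 1.54 and 1.96 over the states of those roots. In seminal root it was that on chromosome 4 from 27349268 to 27349768, with 25.6 CPM in Procambial_meristem and a median of 1.84, and 24.1 CPM in the same state of crown root with a median of 2.6.

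In the seed, the openness was in the embryonic root tip and not in the labelled vascular bundle. Radicle_meristem had a median excess of 1.21 in early seed and 1.08 in late seed. There, 596 (2.9% of all regions) and 539 (3.9%) members exceeded 1, and it was the highest state in 64.9% and 52.2% of members, against 7.01% and 7.78% of all regions. Scutelar_vascular_bundle, the state whose label names the vascular strands of the scutellum, had median excesses of -0.24 and -0.21. Only 30 (4.63% of all regions) and 14 (3.71%) members exceeded 1 in it, a smaller share than among all regions in both stages. Its columns had 655 and 323 distinct values, and those of Radicle_meristem 547 and 221. The part of depth in this difference was not tested. Next after Radicle_meristem came Early_seed_UN2 in early seed, with 177 members above 1 (1.62% of all), and Dorsal_lateral_endopserm in late seed by that count, with 165 (5.31% of all).

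The largest excess in early seed, 3.61, was at the member on chromosome 7 from 7605881 to 7606381, with 25.8 CPM in Radicle_meristem and a median of 0.766 over the states. In late seed it was 2.96, on chromosome 11 from 7093608 to 7094108, with 20.8 CPM in Radicle_meristem and a median of 1.25. Both were open in SBM of panicle as well, at 30.4 and 28.1 CPM.

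**Figure D5:**
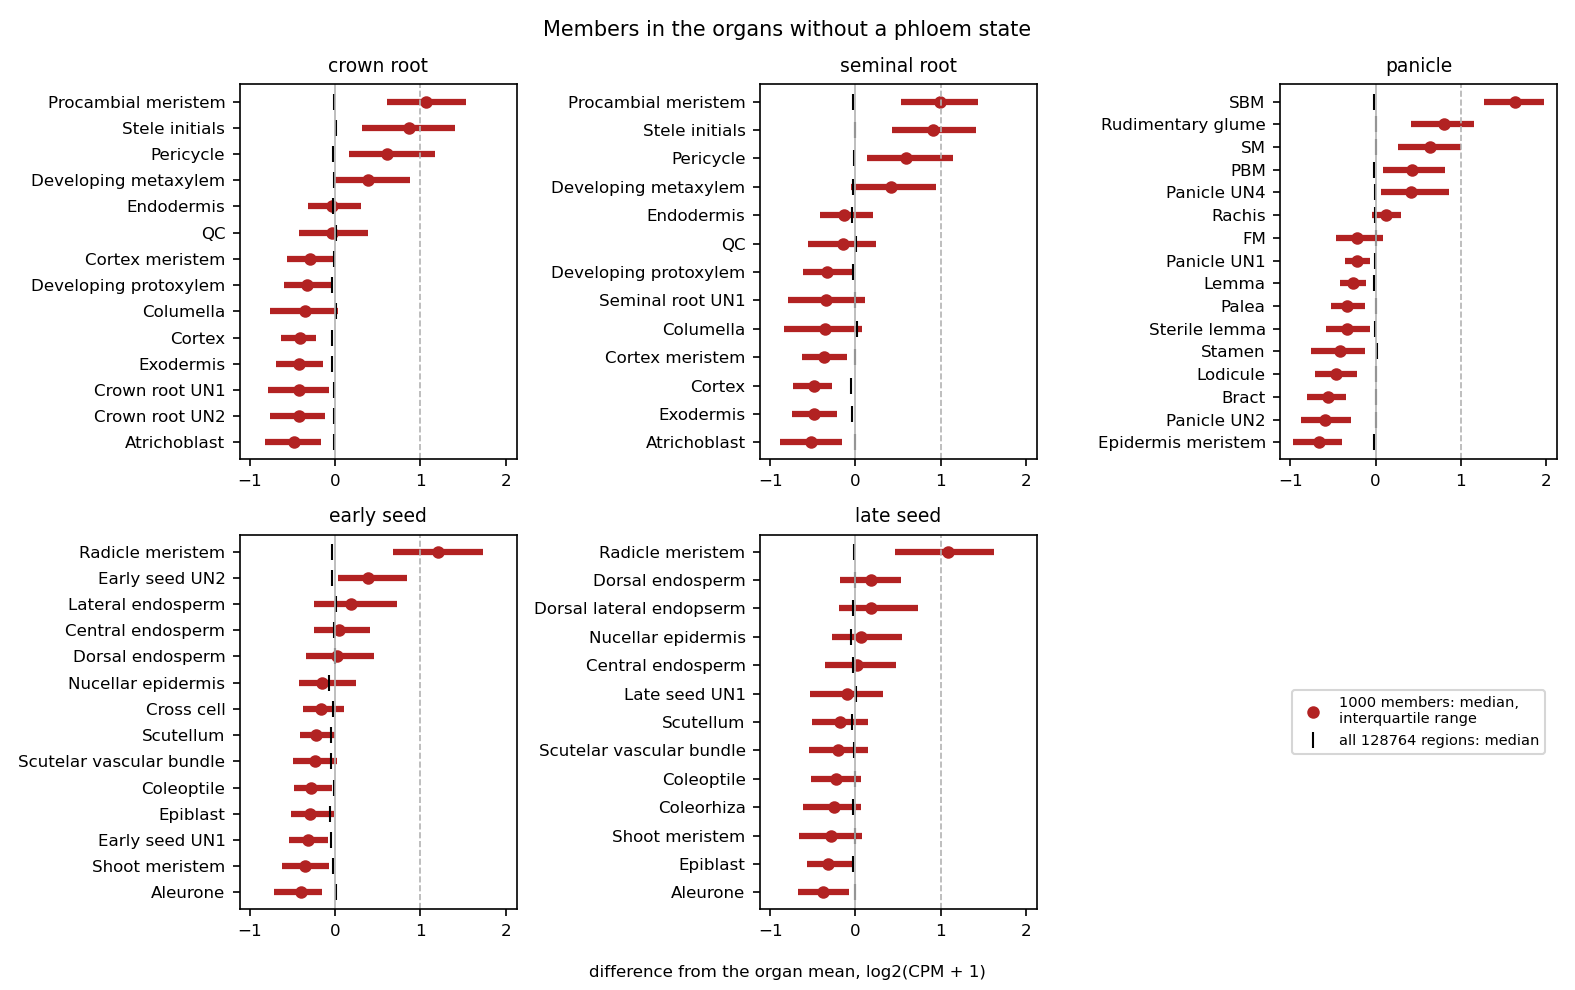
Excess over the organ mean, on the log2(CPM + 1) scale, of the 1000 members in every state of the 5 organs without a phloem column. Points are medians, red bars interquartile ranges, black ticks the median of all regions, and the dashed line an excess of 1. SBM (1.63) leads in panicle, Procambial_meristem (1.07 and 0.99) in the roots and Radicle_meristem (1.21 and 1.08) in the seed stages, while Scutelar_vascular_bundle lies below 0.

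The leading states of these organs were counted jointly, namely Procambial_meristem of both roots, Radicle_meristem of both seed stages and SBM. They had been picked for their medians over the members, so the counts are a description. In 262 members (26.2%) all 5 exceeded 1, against 0.375% of all regions. In 48 members (4.8%) none did, against 90.7% of all regions. The 48 were most open in companion cells of leaf and seedling, with median excesses of 2.66 and 2.68, and less in Developing_phloem of early seedling (0.92). The 262 had 1.42 and 1.31 in those companion cells and 2.19 in Developing_phloem of early seedling. Of the 48, 33 belonged to the group higher in companion cells in 3 of 3 organs, and of the 262, 36 did. The leaf and seedling companion columns are among the 3 with the fewest distinct values, and the part of depth in this difference was not tested.

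The procambium and xylem states were ranked by the same rule for comparison. The 1000 regions most in excess in the 5 Procambial_meristem columns shared 236 regions (23.6% of either list) with the phloem members, and the 1000 most in excess in xylem columns shared 25 (2.5%). Procambium and xylem shared 133 (13.3%). Each list holds 0.777% of all regions, so all of these shares lie above that of a list among all regions. All lists use the same organ means. Over the phloem members, the median of the mean excess was 0.70 in procambial columns and 0.09 in xylem columns, against 0 and -0.02 over all regions. Of the 201 members higher in companion cells, 11 (5.47%) were in the procambium list, and of the 74 lower, 28 (37.8%).

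The second deposited file marks regions as specific to named states or as broadly accessible. It derives from the same nuclei and is no separate evidence. Of 974 members in it, 399 (41.0%) were marked specific and 575 broadly accessible, against 35.5% specific among all regions. Among the 399, 386 (96.7%) named at least 1 phloem state, against 11.1% of all specific regions. Phloem states alone were named by 54 of the 399, and by 604 of all 42618 specific regions. They named a median of 8 states, against 5 over all specific regions. After Developing_phloem and Companion_cell of axillary bud (241 and 221 members) and Developing_phloem of seedling (217), the non-phloem states named most were Procambial_meristem of seminal root (183, or 45.9%, against 10.9% of all specific regions), SBM of panicle (166, or 41.6%, against 1.38%) and Stele_initials of seminal root (132, or 33.1%, against 7.5%). The second-ranked member was listed for 7 states, SBM and Rudimentary_glume of panicle among them.

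The members lay on all 12 chromosomes, from 5.94 per 1000 regions on chromosome 7 to 8.71 on chromosome 3. Their mean CPM over all 128 states had a median of 4.4, against 5.11 over all regions. In the non-phloem states of the 4 organs the median was 3.16, against 5.08, and in phloem states 12.3, against 4.82. The nearest region was itself a member for 238 members (23.8%), although members are 0.777% of all regions. Where the nearest region was not a member, its mean phloem excess still had a median of 0.41, against 0 over all regions. The median distance between neighbouring starts was 809 bases for members and 905 for all regions. Neighbouring regions were not merged, and each was counted once, so the counts given here are not counts of independent regions.

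The densest group lay on chromosome 3, where 12 members fell between 34452247 and 34468399. The 50000-base window around its centre held 37 regions of the table. Its best-ranked member, from 34454381 to 34454881 (rank 14), had 22.7 CPM in Developing_phloem and 20.5 in Companion_cell of axillary bud, 12.9 in Companion_cell of leaf, 17.9 in Developing_phloem of early seedling and 22.9 in that of seedling. The median over the non-phloem states was 1.29. Over the 12, Developing_phloem of axillary bud ranged from 2.18 to 41.8 CPM with a median of 18.6, Companion_cell of leaf from 1.42 to 35.4 with a median of 4.48, and SBM of panicle from 1.24 to 36.5 with a median of 14.6. The group is therefore mixed. It holds the region from 34460045 to 34460545 (rank 781), which the authors list for companion cells of leaf and seedling alone, and 5 regions that they list as broadly accessible.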

How the data were processed

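Single-nucleus ATAC-seq libraries were made from 16000 sorted nuclei each with a 10x Genomics kit, per the labels' protocols. BWA and MACS2 are named in the submitters' processing notes, without role or version. The deposited table holds log2 values, from CPM by its name. They run from -3.24 to 6.21, have 1 shared maximum, and 2 raised to them sums to between 1007548 and 1008613 per column, so the authors had brought the columns to nearly one distribution. This removes differences in total accessibility between states. The number of columns assigned to no organ was 0. Starts were read as counted from 0 and are printed counted from 1. The second deposited file holds state names only.

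The planned CPM scale was kept as log2(CPM + 1), which understates changes at low values. Members and lists were chosen with earlier results of these data known. Tests were one-sample, two-sided limma 3.58.1 fits in R 4.3.3 over organs, with a variance trend on mean log2(CPM + 1), on regions that reached 1 CPM in any column of the fit. All 1000 members passed this filter in each main fit, and 999 in the fits without seedling for Vascular_cell, Mesophyll, Bundle_sheath and Epidermis. In simulated data for the Vascular_cell fit, 193 of 200 regions shifted by 3 were called, and 0 of 200 for the companion cell fit on 3 organs. That shift is larger than the median differences over members, such as 0.78 for Vascular_cell and -0.38 for Mesophyll. Recovery of differences of that size was not tested. Regions named were the 12 highest members, the leading member of each phloem column, organ and test, the most and least even members and the densest group. Marker genes planned for a check, motifs and base composition were not used here, because no annotation or genome of the files' build was given. Cell barcodes were not analysed here. Alternatives were other pseudocounts, scales, filters, references, weightings and list sizes, and each organ left out.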

Additional observations from a re-analysis of the deposited data

How the results depend on the processing

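No paired analysis was possible because the columns are pooled over libraries and carry no replicate number, so pairing was by organ alone: each difference was taken within an organ. Leaving out each organ stood in for leaving out replicates. Of 167 recomputed values for 23 results, 124 stayed within 1.5 times the reported value and 43 did not. The 124 include counts of 0 that stayed at 0. Among those are counts of the companion cell fit, which recovered 0 of 200 shifted regions in simulated data. The tally therefore overstates how stable the other counts were. With organs of 1 tissue label averaged, members called higher fell to 334 for Procambial_meristem (1.11% of all regions) and 453 for Vascular_cell (2.24%). For Mesophyll they fell to 15 lower (0.322%) and 0 higher (1%). For Bundle_sheath and Epidermis they fell to 0 in both directions, as did the calls over all regions. With the phloem columns kept among those subtracted, 374 were higher for Procambial_meristem (3.3% of all regions) and 373 for Vascular_cell (4.51%). Lower calls were then 514 for Mesophyll (3.6% of all regions), 404 for Bundle_sheath (2%) and 267 for Epidermis (1.06%). Higher calls were 0 for Mesophyll (4.84% of all regions) and Bundle_sheath (4.27%). This reference includes columns that chose the members. On the log2 values as deposited, 37 members were lower for Bundle_sheath, against 0.675% of all regions.

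Leaving out 1 organ gave 392 to 697 higher for Vascular_cell, against 1.6% to 6.33% of all regions. For Procambial_meristem it gave 386 to 623 higher (2.15% to 3.96%). Mesophyll had 5 to 222 lower (0.224% to 3.12%) and 0 higher (0.822% to 4.83%). Bundle_sheath had 0 to 203 lower (0% to 2.03%) and 0 to 1 higher (0% to 4.58%), and Epidermis 0 to 361 lower (0% to 8.09%). Companion cells against other phloem states had 0 to 54 higher (0% to 4.35%) and 0 to 416 lower (0% to 5%), the upper values without axillary bud. Those columns chose the members, so these counts are no finding. The highest lower counts were without leaf and the lowest without axillary bud, early seedling or seedling; the cause was not tested. Without columns under 100 distinct values, chosen after seeing the data, 37 members were lower for Epidermis (0.245% of all regions). Higher calls were then 1 for Mesophyll (3.51%) and 0 for Bundle_sheath (2.34%).

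Of the 1000 members, 402 were among the first 1000 by Companion_cell columns alone, 726 with organs weighted equally, 849 with a pseudocount of 0.1 and 796 to 865 without 1 organ. At an excess of 0.5, 76.7% of members passed in Procambial_meristem of seminal root. The first 500 regions shared 15% with procambium and 1.4% with xylem, and the first 2000 shared 5.7% with xylem, since longer lists share more. Depth is unknown and no value has a counting interval.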
